A study of Mus musculus with 8 samples.

Results

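The suprabasal epidermal keratins are the keratin genes switched on as keratinocytes leave the basal layer. They were taken here as 7 genes matched by symbol: Krt1, Krt2, Krt10, Krt77, Krt78, Krt79 and Krt80. They are 7 of 55488 genes in the deposited tables and 7 of the 16908 genes that passed the filter on low counts, so every member was tested. Their symbols set the membership, with no threshold on measured values, although earlier results of these data were known when the group was chosen. The study compared dorsal skin of wild-type mice with dorsal skin of TPH1 knockout mice, all aged 3 months, and its title concerns peripheral serotonin, made outside the brain, and the differentiation of epidermis. Each genotype was represented by 4 bulk RNA-seq libraries of 20531601 to 24678638 expected counts. The labels give no knockout allele, strain, sex, litter or batch, and do not say whether the libraries are from separate mice.

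Keratins build the intermediate filaments of epithelial cells, and a filament needs a type I keratin paired with a type II keratin. Basal keratinocytes use Krt5 with Krt14. Cells that move up into the spinous layer replace this pair with Krt1 and Krt10, and their filaments are later bundled by filaggrin and anchored at desmosomes. Mutations of KRT1 and KRT10 in humans cause epidermolytic ichthyosis, a fragile and thickened skin. Of the 7 members only Krt10 encodes a type I keratin.

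Tph1, the targeted gene, held 18, 0, 27 and 11 counts in wild type replicates 1 to 4 and 0 in each knockout library, where a floor of 3 counts lies between 0.125 and 0.139 CPM (counts scaled to library size). Wild type replicate 2 therefore did not differ from the knockout libraries in this gene. Basal keratin genes, which mark epidermis, summed to 10691 to 22326 CPM in wild type and 7544 to 14765 CPM in knockout. Skeletal muscle genes were abundant, with a sum over 20 genes of 18458 to 120652 CPM in wild type and 74478 to 133858 CPM in knockout. Tph1 knockout replicate 3 stood apart in hair genes: keratins of the hair shaft and inner root sheath made up 11.2% of its keratin TPM (a level scaled to gene length and library size), against 0.631% to 1.35% in the other knockout libraries.

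The 6 type II members lie in the keratin cluster of chromosome 15, and Krt10 lies in the type I cluster of chromosome 11 (GRCm38, all on the minus strand). Krt2 (chr15:101810689-101818169), Krt1 (chr15:101845426-101850794) and Krt77 (chr15:101858731-101869705) are direct neighbours among the protein-coding keratin genes there. Krt79 (chr15:101929332-101940324) and Krt78 (chr15:101946001-101954287) form a second run, and Krt80 (chr15:101347444-101370162) is the first keratin gene of the cluster. Krt10 spans chr11:99385254-99389364. An annotated antisense gene overlaps Krt10 and another overlaps Krt80. Strand was not recorded by the library kit named in the labels, but the antisense genes were assigned only 257 and 1572 counts over the 8 libraries, against 559644 for Krt10 and 113222 for Krt80.

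RefSeq promoter windows on GRCm38.p6, from 250 bases before to 50 bases after the gene start, were at hand for 5 of the 7 genes. Those of Krt10 and Krt77 are shown because these genes had the most alike profiles of all member pairs, and that of Krt78 because it was the member that passed the test. Capitals mark matches, on either strand, to TATAAA (the TATA box core), TGANTCA (AP-1), TTGCNNAA (C/EBP) or AACCGGTT (Grainyhead-like factors), and the matches in the windows shown do not overlap each other.
Krt10, chr11:99389315-99389614, minus strand: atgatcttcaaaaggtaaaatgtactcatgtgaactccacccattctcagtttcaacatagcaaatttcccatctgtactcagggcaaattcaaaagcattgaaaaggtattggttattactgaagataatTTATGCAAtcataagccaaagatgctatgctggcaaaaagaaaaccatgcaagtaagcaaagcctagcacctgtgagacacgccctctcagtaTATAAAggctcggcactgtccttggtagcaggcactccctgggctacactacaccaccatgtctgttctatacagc
Krt77, chr15:101869656-101869955, minus strand: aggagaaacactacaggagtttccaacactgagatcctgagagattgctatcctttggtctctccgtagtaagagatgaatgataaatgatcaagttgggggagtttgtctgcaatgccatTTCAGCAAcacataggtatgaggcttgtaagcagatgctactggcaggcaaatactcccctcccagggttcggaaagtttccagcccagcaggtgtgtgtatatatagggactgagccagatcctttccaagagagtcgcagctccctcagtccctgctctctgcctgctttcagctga
Krt78, chr15:101954238-101954537, minus strand: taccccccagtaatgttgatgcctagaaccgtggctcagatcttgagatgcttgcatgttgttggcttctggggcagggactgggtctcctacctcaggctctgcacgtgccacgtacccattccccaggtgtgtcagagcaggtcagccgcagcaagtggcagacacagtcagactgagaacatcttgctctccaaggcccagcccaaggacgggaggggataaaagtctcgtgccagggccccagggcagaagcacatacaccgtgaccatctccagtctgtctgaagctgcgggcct

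In the windows of Krt10 and Krt77 the C/EBP letters were found on the minus strand of the window, starting 119 and 129 bases before the gene start. Krt10 also carried the TATA box core, starting 26 bases before the start. No letters of the 4 motifs were found in the Krt78 window, nor in those of Krt2 and Krt79. Among 32851 promoter windows of the same length, TATAAA was present in 13.6%, TGANTCA in 7.81%, TTGCNNAA in 10.8% and AACCGGTT in 0.146%.

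Per length, Krt10 was the most abundant member in every library. Its level in wild type was 2839 ± 1129 TPM (SD, n = 4), followed by Krt77 at 1836 ± 575 TPM and Krt1 at 616 ± 134 TPM. Krt77, a type II keratin whose gene adjoins Krt1, was thus higher than Krt1 in 8 of 8 libraries, and in wild type their ranges did not overlap. Krt80, a keratin known from the margins of differentiated epithelial cells, followed at 348 ± 94.9 TPM and Krt79, known from the upper hair follicle and sebaceous duct, at 206 ± 139 TPM. These neighbours overlapped, and Krt80 was the higher in 7 of 8 libraries. Krt78 was far lower, at 36.7 ± 5.42 TPM. Krt2, a keratin of the uppermost living layers that in mice is best known from ear, sole and tail skin, was close to absent at 0.420 ± 0.122 TPM, with 3 to 24 counts per library.

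The order of the means was the same in the knockout, at lower levels. Krt10 averaged 1427 ± 792 TPM, Krt77 816 ± 530 TPM, Krt1 410 ± 56.0 TPM, Krt80 223 ± 72.0 TPM, Krt79 183 ± 159 TPM, Krt78 16.7 ± 5.34 TPM and Krt2 0.297 ± 0.237 TPM (SD, n = 4 each). The summed level of the 7 genes was 5883 ± 1968 TPM in wild type and 3077 ± 1605 TPM in knockout, and the ranges overlapped (4508 to 8755 and 1873 to 5358 TPM). In CPM the sum ran from 8052 to 13466 in wild type and from 3591 to 7826 in knockout, without overlap.

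All 7 members had lower fitted levels in knockout skin, as did 46.9% of all tested genes, and 1 of them, Krt78, passed the test over all genes. At an adjusted p under 0.05 (edgeR quasi-likelihood test, Benjamini-Hochberg), 0.651% of all tested genes were called and 0.532% were called lower. The median log2 fold change, knockout over wild type, was -0.62 over the members and 0.03 over all tested genes. At an unadjusted p under 0.05 there were 5 of 7 members, where 17.6% of all tested genes reached that level. In 3 members, Krt1, Krt77 and Krt78, every knockout library lay below every wild-type library in CPM, which held for 5.65% of all tested genes. In TPM only Krt78 was apart in this way. There knockout replicate 3 exceeded wild type replicate 2 for Krt1 (477 and 473 TPM). For Krt77 it exceeded wild type replicate 3 (1564 and 1477 TPM). In bulk skin, fewer differentiated keratinocytes and less keratin RNA in each of them cannot be told apart.

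**Figure D1:**
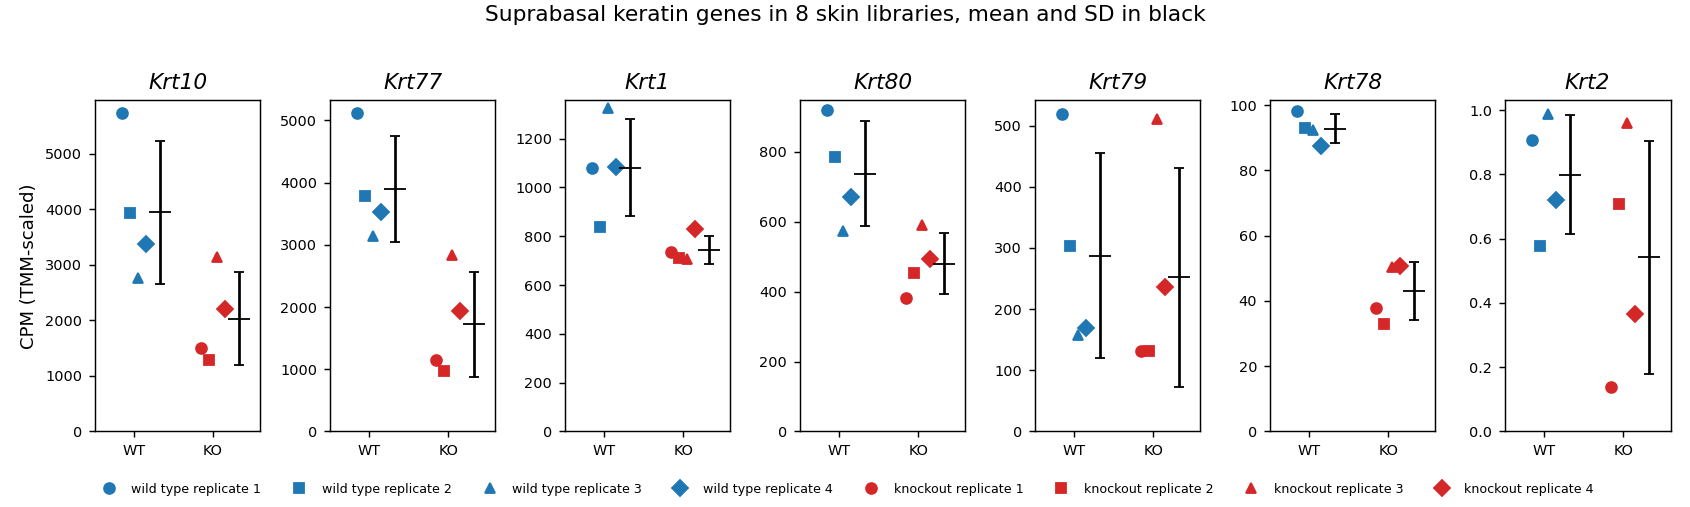
Level of each member in CPM (vertical axes, each starting at 0) in 4 wild-type (WT, blue) and 4 knockout (KO, red) libraries, with the marker shape giving the replicate and the black bar the mean ± SD. Krt78 shows a gap between the genotypes from 50.7 to 87.4 CPM, while the genotypes of Krt79 and Krt2 lie over each other.

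Krt78, a type II keratin of differentiated keratinocytes, was measured at 98.3, 92.9, 92.3 and 87.4 CPM in wild type and at 37.8, 33.1, 50.4 and 50.7 CPM in knockout. The lowest wild-type library stood well above the highest knockout library. Krt78 fell by 1.11 ± 0.15 (SE) on the log2 scale (edgeR adjusted p = 0.0220), and the fitted knockout level was 0.464 of wild type. It had the smallest relative spread of any member in wild type, with a coefficient of variation of 4.78% against 18.5% to 58.4% for the others. In knockout its coefficient of variation was 20.8%, above those of Krt1 (7.64%) and Krt80 (18.1%). The call was sensitive to the libraries used although the size was not. It held without wild type replicate 2 (edgeR adjusted p = 0.0393) and without knockout replicate 3 (adjusted p = 0.0165). It was lost without wild type replicate 1, 3 or 4 (edgeR adjusted p = 0.0635, 0.0535 and 0.0633) and without knockout replicate 1, 2 or 4 (adjusted p = 0.0977, 0.0628 and 0.0665), while the log2 fold change stayed between -1.20 and -1.001 in all 8 of these fits.

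Krt77 and Krt10 had differences of similar size and did not pass. Krt77 was at 5115, 3786, 3149 and 3527 CPM in wild type and at 1144, 975, 2831 and 1935 CPM in knockout. The genotypes were thus apart in CPM, with knockout replicate 3 nearest to wild type. In TPM the Krt77 genotypes overlapped, as knockout replicate 3 (1564) lay above wild type replicates 3 and 4 (1477 and 1435). Its log2 fold change was -1.18 ± 0.36 (SE, edgeR adjusted p = 0.162). Krt10, the type I partner in suprabasal filaments, was at 5733, 3922, 2753 and 3371 CPM in wild type and at 1494, 1287, 3137 and 2201 CPM in knockout. Here knockout replicate 3 rose above wild type replicate 3, and the genotypes overlapped. Without knockout replicate 3, the library with the high hair keratins, the log2 fold change was -1.25 for Krt10 and -1.53 for Krt77, and neither passed (edgeR adjusted p = 0.135 and 0.0756).

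Krt1 and Krt80 differed by less. Krt1, the main type II keratin of the spinous layer, was at 1079, 836, 1326 and 1083 CPM in wild type and at 735, 711, 705 and 828 CPM in knockout. The 4 knockout libraries were close together and all below wild type in CPM, but wild type replicate 2 exceeded knockout replicate 4 by a narrow margin. The log2 fold change of Krt1 was -0.54 ± 0.19 (SE, edgeR adjusted p = 0.204). Krt80 was at 921, 785, 573 and 670 CPM in wild type and at 383, 453, 591 and 493 CPM in knockout, where only wild type replicate 3 and knockout replicate 3 crossed. Its log2 fold change was -0.62 ± 0.21 (SE, edgeR adjusted p = 0.189). Without wild type replicate 3 or without knockout replicate 3, the members whose genotypes did not overlap in CPM were 5, with Krt10 and Krt80 added. The share of all tested genes lower without overlap was then 6.45% and 9.51%.

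Krt79 and Krt2 showed no separation of the genotypes. Krt79 was at 519, 303, 158 and 170 CPM in wild type and at 131, 131, 511 and 236 CPM in knockout, with wild type replicate 1 and knockout replicate 3 high in each genotype. Its log2 fold change was -0.19 ± 0.51 (SE, edgeR adjusted p = 0.873) and changed sign without wild type replicate 1 (0.26), knockout replicate 1 (0.024) or knockout replicate 2 (0.025). The list of sebaceous gland genes was also highest in knockout replicate 3, where its mean log2(CPM + 1) was 7.31 against 4.45 to 5.41 in the other knockout libraries, and its part in the Krt79 values was not tested. Krt2 was at 0.907, 0.578, 0.989 and 0.720 CPM in wild type and at 0.139, 0.708, 0.959 and 0.364 CPM in knockout. At these counts a log2 difference of -0.55 ± 0.54 (SE; adjusted p = 0.614 by edgeR) was not distinguishable from no difference.

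The DESeq2 Wald test on the same counts called 5 members lower: Krt78, Krt77 (adjusted p = 0.0115), Krt1 (0.0313), Krt80 (0.0355) and Krt10 (0.0454). That test called 5.82% of all tested genes, against the 0.651% called by edgeR. The log2 fold changes of these 5 members differed by less than 0.02 between the tools, so the calls differed while the sizes did not.

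**Figure D2:**
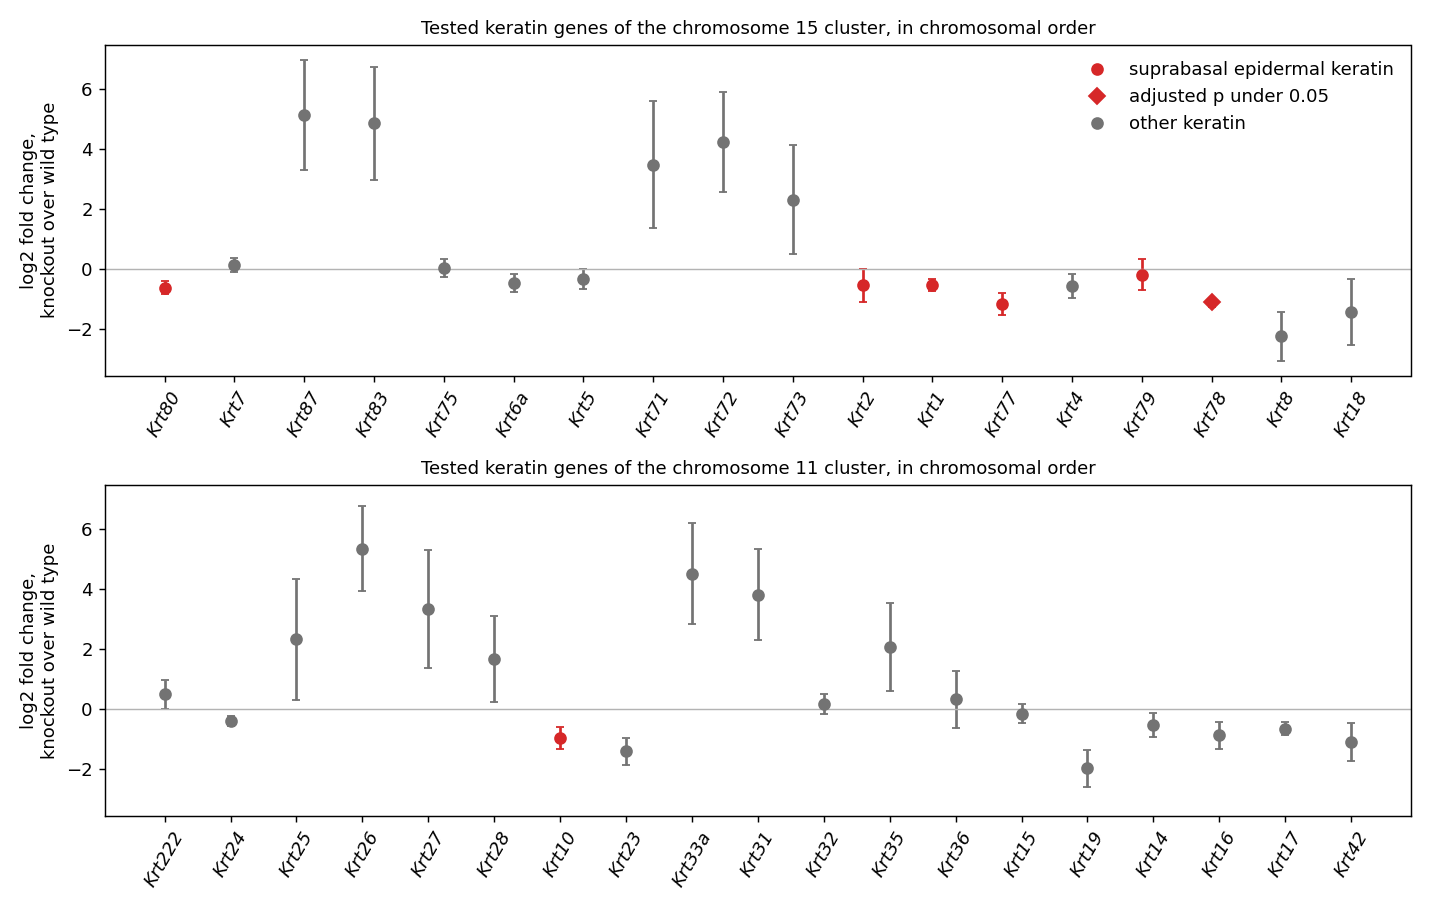
Log2 fold change, knockout over wild type, with its SE (vertical axes) for the 18 tested keratin genes of chromosome 15 and the 19 of chromosome 11, in chromosomal order (horizontal axes). The suprabasal genes (red) lie between -1.18 and -0.19 and the diamond marks Krt78, while keratins of hair and inner root sheath lie up to 5.35 with wide errors.

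Read along the chromosomes, the suprabasal genes stood among keratins of other cell types, some with similar log2 fold changes and some without. Of the 30 other tested keratin genes, 8 lay within the members' range of -1.18 to -0.19, among them Krt5, Krt14, Krt16 and Krt17. Another 4, all keratins of simple epithelia, lay below that range. Of the 18 tested protein-coding keratin genes in the chromosome 15 cluster, 11 had a negative log2 fold change and the median was -0.39. In the chromosome 11 cluster it was 9 of 19, with a median of 0.17. With the 7 members left out, 13 of 30 keratin genes were negative, the median was 0.16 and 0 were called by edgeR, with 11 at an unadjusted p under 0.05. DESeq2 called 3 of these 30 lower and 1 higher.

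The basal keratins Krt5, Krt14 and Krt15 were all negative, at -0.33 ± 0.34, -0.52 ± 0.39 and -0.14 ± 0.31 (SE), and none passed (edgeR adjusted p = 0.628, 0.502 and 0.836). Of the stress keratins, which are induced in wounded or hyperproliferative epidermis, 3 of 4 were tested; edgeR called 0, with 1 at an unadjusted p under 0.05, and DESeq2 called 1 lower. Krt17 had the smallest p among them (log2 fold change -0.64 ± 0.21 SE, edgeR adjusted p = 0.175). Of 5 tested keratins of simple, single-layered epithelia, 4 were negative, with a median of -1.43. None was called by edgeR, 3 had an unadjusted p under 0.05, and DESeq2 called 2 lower. Krt23, at 127 ± 37.4 CPM in wild type and 48.2 ± 32.99 CPM in knockout (SD, n = 4 each), was the most abundant of them (log2 fold change -1.40 ± 0.45 SE; adjusted p = 0.172 by edgeR). Keratins of mucosa and of palm and sole skin were close to absent: only Krt4 passed the filter on low counts, and Krt76 had 1 count over all 8 libraries. Keratins of the inner root sheath and companion layer (8 tested) and of the hair shaft (6 tested) were all positive, with medians of 2.84 and 2.94. None passed with edgeR, 2 and 3 had an unadjusted p under 0.05, and DESeq2 called 1 and 0 of them. Summed over all listed genes with an identifier (9 and 14), tested or not, they reached 134 to 306 CPM and 7.07 to 37.4 CPM in wild type. In knockout these sums were 163 to 1481 CPM and 13.3 to 500.3 CPM, with knockout replicate 3 the highest for both lists. The 6 tested hair shaft keratins alone summed to 246 CPM in knockout replicate 3.

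**Figure D3:**
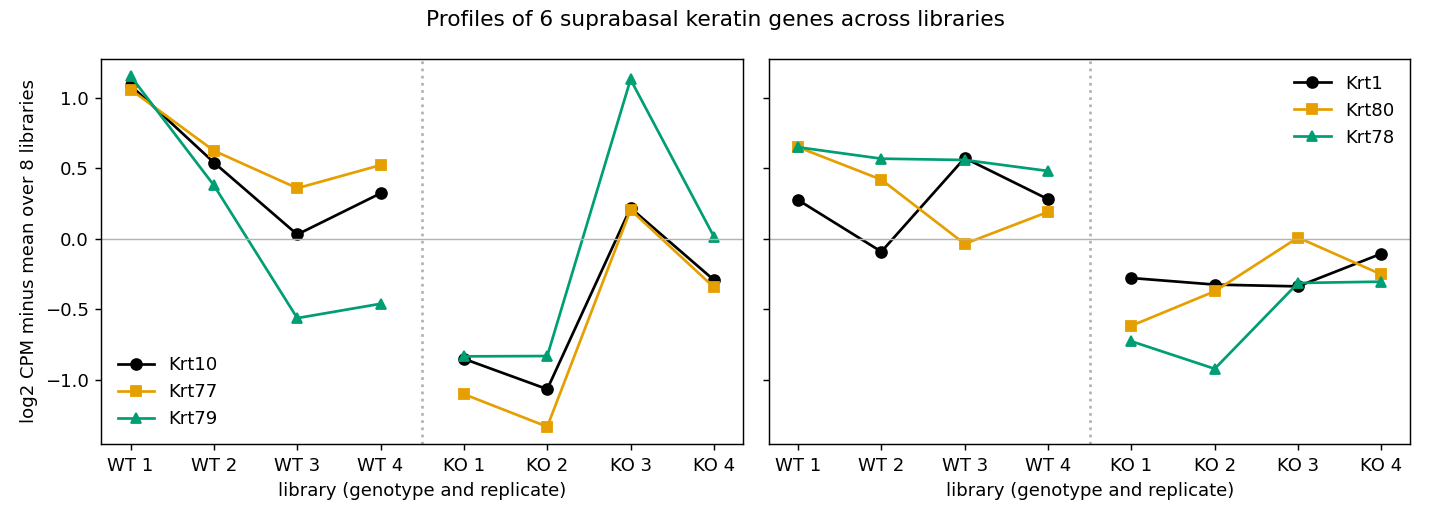
Log2 CPM of 6 members minus each gene's mean over the 8 libraries (vertical axis), by library (horizontal axis, WT wild type, KO knockout); lines only link the points of a gene, since replicates have no order. Krt10 and Krt77 run close together and Krt79 shares their high values in wild type replicate 1 and knockout replicate 3, whereas Krt1 does not.

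The members did not vary together as a single unit. Likeness was measured as the SD, over 8 libraries, of the difference in log2(CPM + 1) between a pair of genes, so that a small SD means parallel profiles. The closest of the 21 pairs was Krt10 with Krt77, at 0.20. Krt10 and Krt1, the pair that forms the classical spinous filament, were at 0.61, and the least alike were Krt1 and Krt79, at 0.89. Krt1 was highest in wild type replicate 3, the library in which Krt10, Krt77 and Krt79 were lowest within wild type. Krt2 is compressed on this scale because of its low counts.

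Outside the members, genes among the most like Krt10, of those with a mean of at least 10 CPM, were Mpzl3 (SD 0.15), Pla2g2f (0.15), Nlrp10 (0.20) and Ide (0.20). Pla2g2f encodes a secreted phospholipase of suprabasal epidermis. None of these 4 passed the genotype test (edgeR adjusted p from 0.0938 to 0.234). The genes most like Krt78 were Agpat4 (0.15), Otop3 (0.15), Them5 (0.15), Sbsn (0.15) and Gjb5 (0.16). Sbsn encodes suprabasin, a secreted protein of the upper epidermis, and Gjb5 a connexin of keratinocyte gap junctions. Of these, Agpat4, Otop3, Them5 and Gjb5 passed, as is built into likeness to a gene with separate genotypes.

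**Figure D4:**
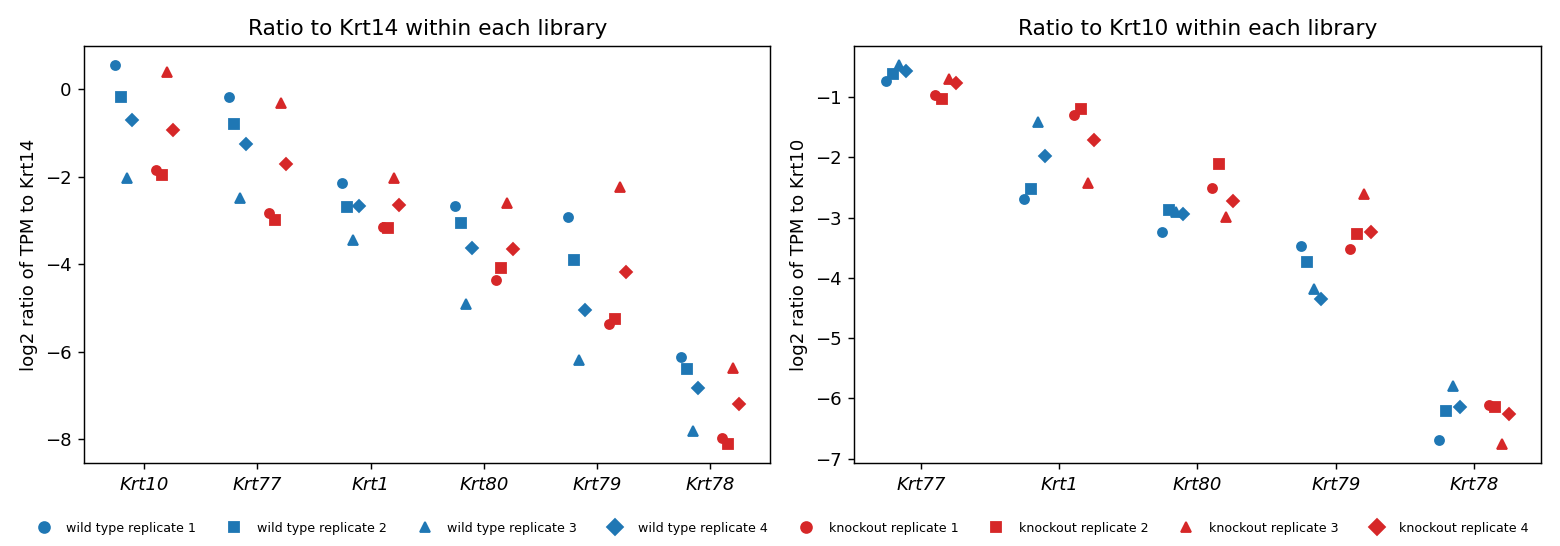
Log2 ratio of TPM within each library (vertical axes) of 6 members to the basal keratin Krt14 (left) and of 5 members to Krt10 (right), with wild type in blue, knockout in red and marker shape giving the replicate. Ratios to Krt14 spread widely in both genotypes, while the ratio of Krt77 to Krt10 stays between -1.03 and -0.47.

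Ratios within a library do not depend on how libraries are scaled to each other. Each member was set against Krt14, for basal cells, and each other member against Krt10, giving 13 log2 ratios of TPM + 0.1 tested by a two-sided exact permutation test over 70 assignments, whose smallest possible p is 0.0286. After adjustment over the 13 a single ratio at that p could not go below 0.371, and 8 ratios would have to reach it for any to pass, so that none passed says little. For Krt10 to Krt14 the wild-type log2 ratio averaged -0.58 ± 1.09 and the knockout ratio -1.09 ± 1.09 (SD, n = 4 each; exact permutation p = 0.486, adjusted p = 0.789). For Krt78 to Krt14 the wild-type mean was -6.79 ± 0.74 and the knockout mean -7.41 ± 0.80 (exact permutation p = 0.286, adjusted p = 0.637), so relative to Krt14 the genotypes overlapped also for the gene that passed on its own. Without 1 library the difference, knockout minus wild type, ran from -1.004 to -0.129 for Krt10 to Krt14 (with all libraries -0.51), from -1.32 to -0.43 for Krt77 (-0.78) and from -0.97 to -0.38 for Krt78 (-0.62). The ends were set by knockout replicate 3 in each case, and by wild type replicate 1 for Krt10 and knockout replicate 2 for Krt77 and Krt78. Krt14 itself varied, with a coefficient of variation of 52.7% in wild type.

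Relative to Krt10 the ratios were tighter than relative to Krt14 in both genotypes, except that of Krt1. The SD of Krt1 to Krt14 was 0.535 in wild type and 0.540 in knockout, slightly below that of Krt1 to Krt10. For Krt77 to Krt10 the wild-type mean was -0.60 ± 0.12 and the knockout mean -0.87 ± 0.15 (SD, n = 4 each; exact permutation p = 0.0571, adjusted p = 0.371). For Krt79 to Krt10 the means were -3.93 ± 0.40 for wild type and -3.16 ± 0.39 for knockout (exact permutation p = 0.0571, adjusted p = 0.371), and for Krt1 to Krt10 they were -2.15 ± 0.58 and -1.66 ± 0.55 (exact permutation p = 0.257, adjusted p = 0.637). In each case the genotypes overlapped. As a share of the summed TPM of the 7 genes, Krt10 took 47.6% ± 3.24 in wild type and 45.9% ± 1.53 in knockout. Krt77 took 31.3% ± 0.597 and 25.3% ± 3.47, without overlap (30.5% to 31.8% and 21.6% to 29.2%), and Krt1 took 11.1% ± 3.83 and 15.1% ± 4.71 (SD, n = 4 each). The shares were not tested.

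Among all protein-coding keratins of both clusters, the 7 members made up 30.6% ± 10.4 of the TPM in wild type and 22.3% ± 9.73 in knockout, with overlapping ranges of 18.8% to 44.1% and 14.1% to 35.4%. The basal keratins made up 61.2% ± 11.3 and 67.4% ± 15.3 (SD, n = 4 each).

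Lists of keratin-binding, suprabasal, regulatory and basal keratinocyte genes, with some genes in more than 1 list, gave the following counts. Of 22 tested genes for keratin anchors and filament-binding proteins, such as desmosomal plaque proteins, envoplakin and filaggrin, 17 had negative log2 fold changes, 0 were called by edgeR and 6 had an unadjusted p under 0.05, with a median of -0.22, and DESeq2 called 4 lower. The smallest p were those of Evpl (-0.54 ± 0.15 SE), which encodes the keratin linker envoplakin, Pkp3 (-0.51 ± 0.15), a plakophilin gene, and Jup (-0.56 ± 0.17), the plakoglobin gene, with edgeR adjusted p = 0.123, 0.145 and 0.160. Of 20 tested other suprabasal genes, 19 were negative and 4 passed, all lower (Lypd3, Calm4, Krtdap and Lor), with a median of -1.24. In that list 17 had an unadjusted p under 0.05, and DESeq2 called 13 lower. Lypd3, which encodes a membrane protein of differentiating keratinocytes, fell from 218 ± 47.5 to 82.5 ± 8.80 CPM (SD, n = 4 each; log2 fold change -1.40 ± 0.17 SE, edgeR adjusted p = 0.0112). Of 20 tested regulators of keratinocyte differentiation, 16 were negative and 1 passed, Cebpb, with a median of -0.43, 10 at an unadjusted p under 0.05 and 7 called lower by DESeq2. Grhl3 and Ovol1, transcription factor genes of the upper layers, were fitted lower by log2 values of -1.25 ± 0.25 and -1.22 ± 0.27 (SE) but missed the threshold (edgeR adjusted p = 0.0646 and 0.0824). Of 10 tested basal keratinocyte genes, such as integrins and laminins, 5 were negative and 0 were called by edgeR, with 3 at an unadjusted p under 0.05, 1 called higher by DESeq2 and a median of -0.0036.

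Other gene lists had medians away from 0 beside these keratin values, and in each list given here the summed levels of the genotypes overlapped. Of 9 Langerhans and myeloid genes 8 were negative (median -0.62; summed level 819 to 1214 CPM in wild type and 413 to 1143 CPM in knockout), with 4 at an unadjusted p under 0.05. Of 5 upper hair follicle genes 4 were negative (median -0.63; 1158 to 1700 CPM and 764 to 1473 CPM), with 3 at an unadjusted p under 0.05. The smallest p of these was that of Lrig1, which was higher in knockout (log2 fold change 0.46 ± 0.12 SE). Krt17, already counted with the stress keratins, was another of the 3. It was the most abundant of the list, with means of 1034 CPM in wild type and 663 CPM in knockout. Of 6 tested mast cell genes 5 were negative, with a median of -0.91. All 8 listed mast cell genes, tested or not, summed to 37.8 to 128 CPM in wild type and 21.4 to 77.4 CPM in knockout. Of 10 adipocyte genes 8 were negative, with a median of -0.53 and sums of 3632 to 4688 CPM and 1877 to 4559 CPM. The mast cell and adipocyte lists each had 2 genes at an unadjusted p under 0.05. In these 4 lists edgeR called 0 genes, while DESeq2 called 1 Langerhans and myeloid gene lower, 1 mast cell gene lower, and 1 upper follicle gene in each direction. The part of these lists in the keratin values was not tested. The 20 genes of skeletal muscle were each fitted higher in knockout, with a median of 0.49, 0 called by edgeR, 2 called higher by DESeq2, 3 at an unadjusted p under 0.05 and none at 0 counts. With their level as a covariate the log2 fold change of Krt78 was -1.11 (edgeR adjusted p = 0.0591) and that of Krt1 was -0.39. Of 18 immediate early and heat shock genes, which respond to the handling of tissue, 17 were negative and 1 was called by edgeR, with a median of -1.37, and none was at 0 counts. There 15 had an unadjusted p under 0.05, and DESeq2 called 10 lower. Their summed level was 3416 to 17707 CPM in wild type and 2310 to 5338 CPM in knockout. With that level as a covariate edgeR called 0 members and only 6 of all tested genes, against 110 without a covariate. In that fit 6 of 7 members stayed negative, and Krt78 was at -1.28 ± 0.24 (SE, edgeR adjusted p = 0.339). Krt10 was at -1.25, Krt77 at -1.51 and Krt1 at -0.22. With the level of basal keratinocyte genes as a covariate Krt78 was at -1.14 and passed (edgeR adjusted p = 0.0355).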

How the data were processed

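Per the submitters' processing notes, STAR 2.7.6a, RSEM 1.31, DESeq2 and DESeq were used with GRCm38, with no role or order given, and the labels name Ensembl release 101. The authors deposited RSEM expected counts per gene and library, TPM values scaled to gene length, and FPKM values that entered no test. They also deposited a matrix of normalized signal for 17382 genes, used for alternatives only. Effective gene lengths from the same deposited tables entered 1 alternative. The submitters' tables name genes by Ensembl identifier. Symbols came from the authors' matrix or a reference name table.

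Expected counts were rounded and analysed with edgeR 4.0.16 in R 4.3.3: filterByExpr by genotype (minimum count 10, minimum total 15), TMM scaling, a robust quasi-likelihood test of genotype with no other term, Benjamini-Hochberg over 16908 genes, threshold 0.05. Each SE was derived from the log2 fold change and the F statistic. Alternatives used DESeq2 1.42.0 and limma 3.58.1. The fit was tested on simulated counts and the permutation test on made-up values, separated and mixed. Members and gene lists were chosen with earlier results of these data known. Genes named outside the members are those called and up to 3 with the smallest p in a list, and the 5 most like Krt10 and Krt78 (1 is not reported here), predicted genes and pseudogenes left out. Since separate mice are not stated, p-values reflect only variation among these libraries, which may be technical. Coordinates are from GENCODE M21 on GRCm38.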

Additional observations from a re-analysis of the deposited data

Results flagged for a closer look

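In 162 groups of 4 libraries, over 81 measures, the library farthest out was checked by Dixon's 95% criterion. Its gap to the nearest library was divided by the range of all 4 libraries. The criterion flags about 1 in 20 groups by chance, and 13 groups were flagged. No member's own CPM was among them. Tph1 knockout replicate 3 was highest in the share of hair keratins in keratin TPM (11.2%, next 1.35%), in the mean log2(CPM + 1) of Langerhans and myeloid genes (6.01) and of melanocyte genes (4.18), and in Ovol1 (40.4 CPM). Wild type replicate 1 was highest in Grhl3 (83.3 CPM), Mpzl3 (69.1 CPM), Nlrp10 (76.98 CPM) and the level of keratin anchors and filament-binding proteins (7.42), and lowest in the log2 ratio of Krt80 to Krt10 (-3.24). Wild type replicate 3 was highest in the simple epithelial keratins Krt8 (7.41 CPM) and Krt19 (5.93 CPM). Krt17 was lowest in wild type replicate 4 (792 CPM), and Krt16 was highest in knockout replicate 2 (24.4 CPM).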

How the results depend on the processing

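No paired analysis was possible because the labels give the genotypes no shared replicate numbers. The number of members called, 1 with edgeR, was 5 with DESeq2 and 0 with library totals only, limma on log2(TPM + 1), the muscle covariate or the immediate early and heat shock covariate, and 0 to 1 without 1 library. All called genes, 110, became 984 with DESeq2, 27 with library totals only, 28 with limma on TPM, and 6, 25 and 56 with the immediate early, muscle and basal keratinocyte covariates; without 1 library they ran from 8 to 170, and without both doubted libraries (wild type replicate 2 with no Tph1 count, knockout replicate 3 with high hair genes) they were 167. The median of the members was -0.96 to -0.54 without 1 library and -1.11 without both. In CPM, members whose genotypes did not overlap were 3 to 5 without 1 library and 6 without both. The latter was an alternative chosen after seeing the data (12.8% of all tested genes were lower without overlap then). Krt2 was at 0.095 with the immediate early covariate, and Krt79 ran from -0.79 to 0.26 without 1 library. The difference in the log2 ratio of Krt2 to Krt14 was 0.41 with a pseudocount of 1, and that of Krt80 was -0.087 with Krt1 in place of Krt10. Without 1 library the ratios to Krt14 ran from -0.25 to 0.19 (Krt1), -0.52 to 0.41 (Krt2), -0.42 to 0.79 (Krt79) and -0.55 to 0.20 (Krt80), and Krt78 to Krt10 from -0.27 to 0.038. The cause was not tested. The other members kept a negative log2 fold change in all alternatives run. Krt2, at 3 to 24 counts, is limited by depth.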
